A study of Apis mellifera with 13 samples.

Results

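The antennal flagella of older in-hive honey bee workers (Apis mellifera) were compared with those of younger ones. Of the 13 samples of the study, 8 entered the comparison, namely the libraries of VSH and NVS bees, which are the ones whose labels give a mean age. VSH bees were seen opening, enlarging or emptying capped brood cells infested by the mite Varroa, a task called Varroa sensitive hygiene, and NVS bees had not been seen at it. The other 5 libraries come from foragers and nurses with no age in the labels, and they are used once below, for values set side by side. The younger class held VSH1 and NVS1, both at a mean of 7.5 days, VSH2 at 9.75 and NVS2 at 9.5 days, and the older class held VSH3 at 12.5, NVS3 at 12.25, VSH4 at 17 and NVS4 at 17.5 days. The labels give 4 pairs of antennae per sample, whereas the methods of the study join 2 such pools of bees of similar age into each library. All of the bees had emerged from brood of a colony selected for this hygiene, were marked at emergence and lived in the same observation hive, where infested brood frames were provided, and the labels name no treatment. The libraries are therefore pools of different bees of a shared hive, and the p-values measure the spread between such pools, not between colonies.

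Workers of the honey bee change task with age, from brood care and comb work inside the hive to foraging outside, and juvenile hormone rises and vitellogenin falls along the way. The flagellum is the distal part of the antenna and the main organ of smell and contact. It holds sensory neurons with odorant receptors, support cells that secrete odorant-binding and chemosensory proteins into the sensillum lymph, epidermis under the cuticle, haemolymph and some haemocytes, and it has no muscle of its own.

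The values are pseudo-counts that the authors scaled by Relative Log Expression (RLE), so each library sums to nearly the same total, 1.92e+07 to 2.03e+07, and the depth of a library cannot be read from them. Pearson's r of the log2 values across genes was 0.979 to 0.988 for pairs of libraries within an age class and 0.975 to 0.986 for pairs across classes. The first principal component held 21.8% of the variance and had VSH4 at one end and NVS2 at the other. VSH4 carried transcripts of other tissues: the sum of its 6 muscle markers was 1715, against 90.1 to 171.6 in the other libraries, and that of its 4 fat body markers was 4747, against 1109 to 1824. The 5 markers of the flagellum itself summed to 636100 to 702200 in the younger and 722600 to 843600 in the older libraries, without overlap. Obp2 was the largest of the 5 in each library. The odorant co-receptor Or2 was at 9239 or above in each library. Of the haemocyte markers, phenoloxidase (PPO) was highest in the younger VSH1, at 754, and lowest in the younger NVS2, at 182.

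Between the age classes, a small set of genes differed, mostly by less than 2-fold and mostly upwards. Defensin 1, beta-1,3-glucan recognition protein 2, 2 cuticle proteins, an esterase, thioredoxin and ribosomal proteins were over-expressed in older bees, and a GMC oxidoreductase and a cytochrome P450 were under-expressed. With the age-matched pair as a random block, the cuticle proteins, the cytosolic ribosomal proteins and the cytochrome P450 did not pass the test below. Of the genes in this summary, the esterase alone passed whichever library was left out. With limma on log2(pseudo-count + 1), behaviour as a covariate and Benjamini-Hochberg adjustment over the 10204 genes tested, 80 genes passed the adjusted threshold of 0.05 (0.784% of the genes tested). Of these, 64 were higher (0.627%) and 16 were lower (0.157%) in older bees, and below they are said to have risen or fallen. Their log2 differences ran from 0.28 to 1.95 with a median of 0.47 among the former and from -0.30 to -2.84 with a median of -0.50 among the latter, and 8 exceeded 1 and 2 were below -1. In whole flagella a lower value can come from fewer cells of a type or from less RNA per cell, which cannot be told apart. The classes did not overlap in 60 of the genes that rose and 14 of those that fell, beside 4.66% and 3.06% of all genes tested. All of the 80 had the same sign in the VSH libraries alone and in the NVS libraries alone. The 80 were chosen on these same libraries, which favours such agreement. Fitted alone, the VSH libraries gave 1 and the NVS libraries 2 of the 80 calls.

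The number of calls depended on single libraries and on the settings of the fit. It was 8 without VSH1, 11 without VSH2, 53 without VSH3, 148 without VSH4, 97 without NVS1, 13 without NVS2, 19 without NVS3 and 8 without NVS4. With the age-matched pair as a random block it was 39, 33 higher and 6 lower, all of them among the 80. With no variance trend in limma it was 1. With mean age in days as a slope in place of the classes it was 15, of which 8 were among the 80. No gene of the 80 changed sign in any of these fits, which their choice on the same libraries favours. Of the 80, 71 were called without VSH4, and 6 were called whichever library was left out.

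Those 6 were LOC409801, LOC725147, LOC100577683 and LOC410042, which rose, and LOC725131 and LOC412299, which fell. LOC409801 (GB53798) is described as esterase E4-like, after a carboxylesterase of aphids that binds and breaks down insecticides. Its pseudo-counts were 261 and 302 in the younger VSH and 627 and 442 in the younger NVS libraries, and 922 and 694 in the older VSH and 1183 and 991 in the older NVS libraries. Each older library lay above each younger one, and within each class the NVS bees lay above the VSH bees. The log2 difference was 1.27 ± 0.14 (SE), adjusted p = 0.00218, and it was 1.14 to 1.42 with 1 library left out, with a largest adjusted p of 0.0231.

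LOC725131 (GB49223), a protein-coding gene with no description in the files, fell from 37259.5 and 40117 in the younger VSH and 33632 and 32988 in the younger NVS libraries to 23089.8 and 21946 in the older VSH and 22354 and 22162 in the older NVS libraries. The 4 older libraries lay within a narrow range below all younger ones. Its log2 difference was -0.68 ± 0.07 (SE), adjusted p = 0.00218, and it was -0.71 to -0.64 with 1 library left out, with a largest adjusted p of 0.0231. LOC412299 (GB51689), also undescribed, fell from 904 ± 114 to 569 ± 46 (mean ± SD, n = 4 per class), a log2 difference of -0.66 with adjusted p = 0.0035.

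The undescribed LOC725147 (GB42088) rose from 2362 ± 301 to 3671 ± 254, LOC100577683 (GB51382) from 9073 ± 763 to 13982 ± 1157 and LOC410042 (GB49312) from 546 ± 110.3 to 842 ± 131. Their log2 differences were 0.64, 0.62 and 0.63, and the adjusted p-values 0.0035, 0.00494 and 0.00582. The largest adjusted p with 1 library left out was 0.0389 for the first and 0.0444 for the other two.

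**Figure D1:**
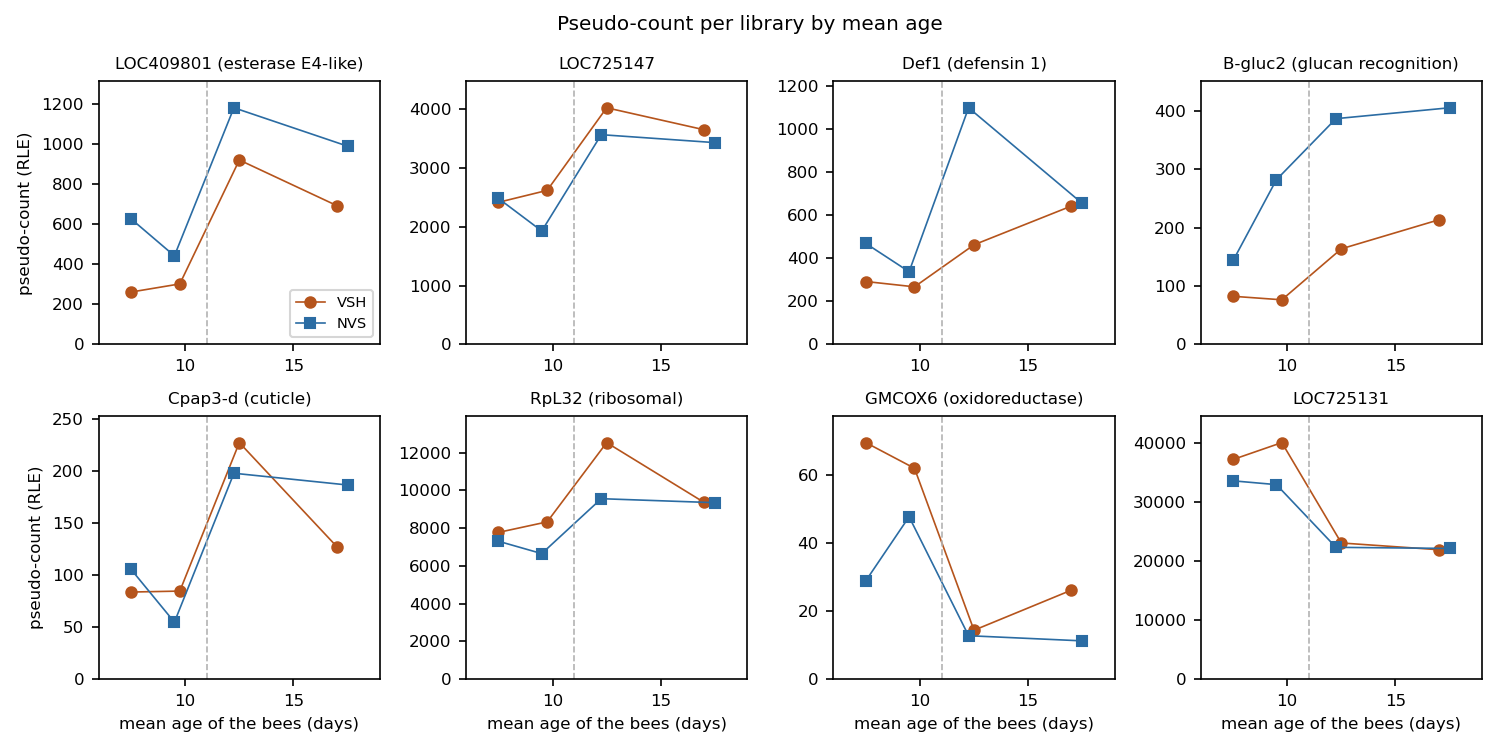
Pseudo-counts (RLE) of 8 genes that passed the test, by the mean age of the bees in each library (days), with circles for VSH and squares for NVS bees, lines joining libraries of the same behaviour and a dashed line between the age classes. Axes start at 0; LOC725131 and GMCOX6 lie lower in all 4 older libraries, and the other genes lie higher in them except that Def1 and B-gluc2 each have a younger NVS library above an older VSH one.

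Genes of immunity were among the largest rises. Defensin 1 (Def1, GB41428), a secreted antimicrobial peptide, was at 291 and 267 in the younger VSH and 468 and 337 in the younger NVS libraries, and at 462 and 642 in the older VSH and 1098 and 654 in the older NVS libraries. The classes touched, as NVS1 lay just above VSH3, while within VSH and within NVS both older libraries exceeded both younger ones. The log2 difference was 1.03 ± 0.16 (SE), adjusted p = 0.0161, and 0.87 to 1.16 with 1 library left out, where the gene was called in 5 of 8 fits with a largest adjusted p of 0.0609. Beta-1,3-glucan recognition protein 2 (B-gluc2, GB42981), which binds cell wall glucans of fungi and bacteria and sets off defence cascades, was at 82.2 and 76.2 in the younger VSH and 143 and 282 in the younger NVS libraries, and at 163 and 213 in the older VSH and 386 and 405 in the older NVS libraries. The NVS bees lay above the VSH bees of the same age, so that NVS2 exceeded both older VSH libraries. The log2 difference was 1.10 ± 0.19 (SE), adjusted p = 0.0208, and 0.93 to 1.32 with 1 library left out, with calls in 4 of 8 fits and a largest adjusted p of 0.0771.

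Of the 6 antimicrobial peptide genes tested, Def1 was the one that passed, 5 had a positive difference and the list median was 1.19, against 0.00 over all genes tested. Abaecin (LOC406144) had a log2 difference of 1.54 ± 0.40 (SE) with adjusted p = 0.095, and was at 53 and 20.7 in the younger VSH and 55.1 and 26.2 in the younger NVS libraries and at 58.3 and 178 in the older VSH and 168 and 71 in the older NVS libraries. The apidaecin gene LOC102654136 had 1.25 and defensin 2 (Def2) 1.12, while hymenoptaecin (LOC406142) had -0.79, and none of the 3 passed. Hymenoptaecin varied from 136 in VSH3 to 8319 in NVS3 within the older class alone. Without VSH4 and NVS2 the list median was 0.30, with 3 members positive and 3 negative.

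Among 36 genes of immune recognition and signalling, B-gluc2 rose and none fell, 22 differences were positive, and the median was 0.07. At an unadjusted p under 0.05, 10 lay higher and 2 lower, which is 27.8% and 5.56% of the list, beside 8.95% and 6.51% of all genes tested. The peptidoglycan recognition protein PGRP-S3 had a log2 difference of 0.51 ± 0.13 (SE) with adjusted p = 0.095, and the scavenger receptor SCR-B5 had 0.31 ± 0.08 (SE) with adjusted p = 0.105. Both had all 4 older libraries above all 4 younger ones. PPO, the enzyme that makes melanin at wounds and around parasites, had a log2 difference of -0.66 with adjusted p = 0.323. It went against most of a list of 8 haemocyte receptor and phenoloxidase genes. Of these, 6 had a positive and 2 a negative difference, with a median of 0.16 and no call. The 3 haemocyte markers summed to 341.6 to 1038 in the younger and 375.3 to 776.7 in the older libraries. PPO was the largest of the 3 in each library. The part of haemocytes in the differences of immune genes was not tested.

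Genes of the cytosolic ribosome held more calls than any other of the 33 lists of genes described here, and theirs was also the list with the most genes tested. Of 60 ribosomal protein genes tested, 59 had a positive difference and 7 rose (RpL32, RpL37, RpLP2, RpL27, RpL22, RpLP1 and RpL37A), with none lower. Of all genes tested, 0.627% rose. RpL32 was at 7777 and 8335 in the younger VSH and 7308 and 6653 in the younger NVS libraries, and at 12538 and 9369 in the older VSH and 9564 and 9353 in the older NVS libraries. All older libraries exceeded all younger ones, and VSH3 lay apart above the other older ones. Its log2 difference was 0.43 ± 0.08 (SE), adjusted p = 0.0336, and 0.35 to 0.52 with 1 library left out, with calls in 3 of 8 fits and a largest adjusted p of 0.13. RpLP2, a stalk protein of the large subunit, rose from 11703 ± 824 to 15238 ± 1632, a log2 difference of 0.38 with adjusted p = 0.0345.

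The shift of the ribosomal list was small and shared by nearly all of its members. The median difference was 0.23 on the log2 scale, 45 members had an unadjusted p under 0.05 in the higher direction and none in the lower (75% of the list, beside 8.95% of all genes tested), and 30 had every older library above every younger one (50%, beside 4.66%). The single member with a negative difference was RpL3, at -0.06. Without VSH4 the calls numbered 26, beside 122 genes called higher over all genes tested in that fit. The list held 0 calls without VSH1, VSH2, NVS2, NVS3 or NVS4, 1 without VSH3, 5 without NVS1 and 0 with the pair as a block. The median stayed between 0.17 and 0.28 and at least 55 differences were positive in all of these fits. With the youngest and the oldest pair alone the median was 0.12.

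**Figure D2:**
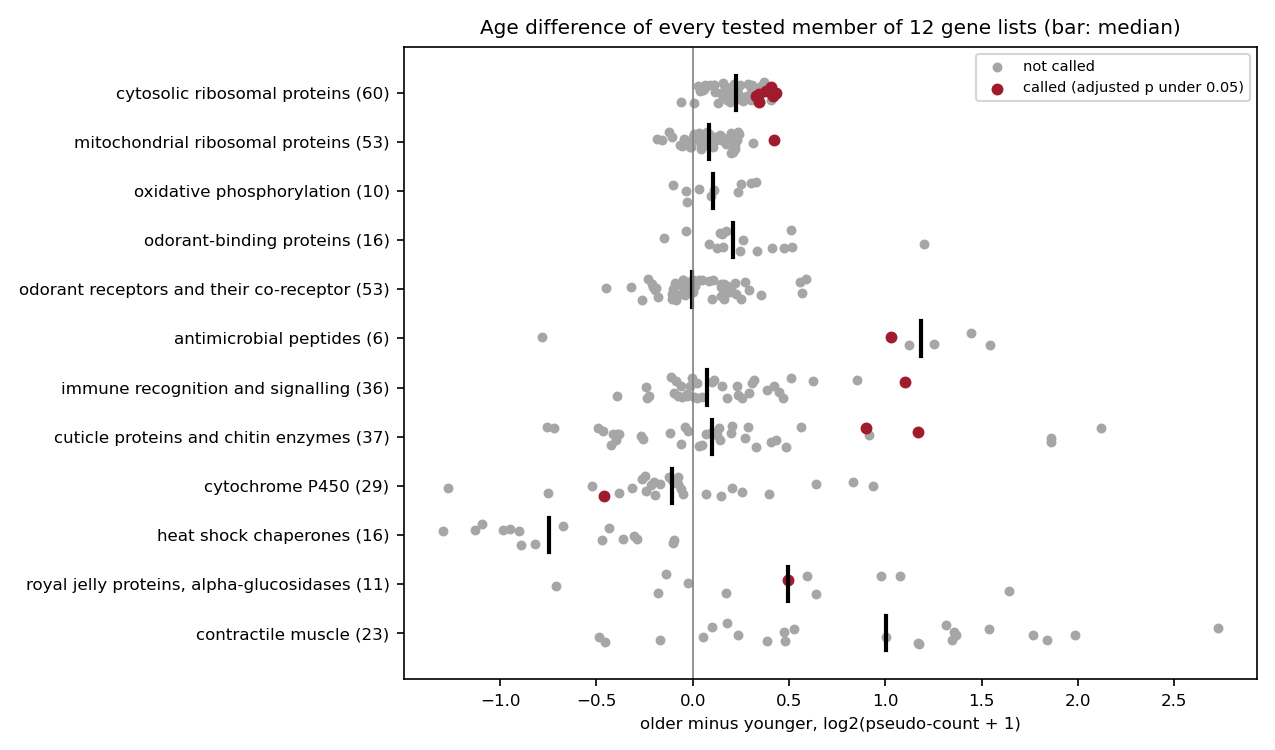
Older minus younger difference on the log2(pseudo-count + 1) scale for every tested member of 12 gene lists (number tested in brackets), with called genes in dark red, others in grey and a black bar at each list's median. The 60 ribosomal protein genes lie close together around 0.23, the 16 heat shock genes all lie below 0, and the 53 odorant receptors lie on both sides of 0.

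Of the mitochondrial ribosomal proteins, which are encoded in the nucleus, 1 rose. The mitochondrial ribosomal protein gene mRpS33 was at 662 and 605 in the younger VSH and 688 and 651 in the younger NVS libraries, and at 879 and 804 in the older VSH and 941 and 871 in the older NVS libraries, with no overlap between the classes. Its log2 difference was 0.42 ± 0.07 (SE), adjusted p = 0.0231, and 0.40 to 0.45 with 1 library left out, with calls in 2 of 8 fits and a largest adjusted p of 0.0847. It was the single call among 53 genes of its list, of which 42 had a positive difference, 16 a positive one at an unadjusted p under 0.05 (30.2%, beside 8.95% of all genes tested) and none a negative one at that level, with a median of 0.08. With the youngest and oldest pairs alone that median was -0.02, and with VSH3 left out it was 0.03 with 29 positive. Ndufb2, a subunit of respiratory complex I that is in none of the lists, rose from 3058 ± 398 to 4185 ± 302, a log2 difference of 0.46 ± 0.08 (SE) with adjusted p = 0.0216, and without overlap.

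None of the 10 genes of a list of oxidative phosphorylation passed, and 4 had an unadjusted p under 0.05, all in the higher direction and without overlap (40% of the list, beside 8.95% and 4.66% of all genes tested). ATPsyn-Cf6, a coupling factor of ATP synthase, had a log2 difference of 0.30 ± 0.07 (SE) with adjusted p = 0.052. The cytochrome c oxidase subunits Cox6c and Cox5b had 0.33 and 0.25, with adjusted p-values of 0.0761 and 0.071. All of the 9 histone genes tested had a positive difference, with a median of 0.30, and none passed, His2Av having 0.23 with adjusted p = 0.122. Of 13 tRNA synthetase genes 12 had a negative difference, with a median of -0.07, and of 8 genes of glycolysis 5 did, with a median of -0.05, and neither list held a call.

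Antioxidant genes differed little. Thioredoxin 1 (Trx-1, GB52684), which reduces disulphide bonds, was at 1863 and 1813 in the younger VSH and 1693 and 1817 in the younger NVS libraries, and at 2455 and 2198 in the older VSH and 2344 and 2241 in the older NVS libraries. The classes did not overlap, and the log2 difference was 0.36 ± 0.06 (SE), adjusted p = 0.0208, with 0.33 to 0.40 when 1 library was left out, calls in 3 of 8 fits and a largest adjusted p of 0.0776. Trx-1 was the single call among 17 antioxidant genes, whose median was 0.05. The thioredoxin-dependent peroxidase Gtpx1 had 0.18 with adjusted p = 0.23. The microsomal glutathione transferase GST-mic1 rose by 0.28 (adjusted p = 0.0477), the smallest rise among the calls, and was called in 0 of 8 fits with a library left out (largest adjusted p 0.177), and not with the pair as a block (adjusted p = 0.0784). None of the 6 other glutathione S-transferases tested passed, with a median of -0.09.

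Of the genes of cuticle structure and chitin, 2 of 37 tested rose and none fell, beside 0.627% and 0.157% of all genes tested. Positive differences numbered 22 and negative ones 15 (59.5% positive, beside 50.8% of all genes tested), with a median of 0.10. Cpap3-d (GB41946), a chitin-binding cuticle protein, was at 83.6 and 84.5 in the younger VSH and 105 and 54.7 in the younger NVS libraries, and at 227 and 127 in the older VSH and 198 and 186 in the older NVS libraries. The lowest older library, VSH4, still exceeded the highest younger one, NVS1, and the log2 difference was 1.17 ± 0.22 (SE) with adjusted p = 0.0337. CPF2, another structural cuticle protein, rose from 59.1 ± 8.6 to 111 ± 16.6, a log2 difference of 0.90 ± 0.18 (SE) with adjusted p = 0.0424 and no overlap. With 1 library left out, Cpap3-d was called in 2 and CPF2 in 1 of 8 fits, with largest adjusted p-values of 0.112 and 0.149, and with the pair as a block neither passed (adjusted p = 0.0519 and 0.0694). Dumpy (dp), a giant extracellular protein that anchors epidermis to cuticle in Drosophila, had a difference of -0.38 ± 0.08 (SE) with adjusted p = 0.0585, and all of its older libraries lay below the younger ones.

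Among 17 genes of melanin formation and tanning, LOC552811 (GB41212) rose. It is described as laccase-5-like, and laccases are copper enzymes that oxidise phenols, some of them in the tanning of cuticle. Its values were 107 and 97.6 in the younger VSH and 119.9 and 222 in the younger NVS libraries, and 132 and 239 in the older VSH and 578 and 675 in the older NVS libraries. NVS2 exceeded VSH3, and the highest values were those of the older NVS bees. The log2 difference was 1.36 ± 0.26 (SE), adjusted p = 0.0323, with 0.79 in VSH and 1.93 in NVS bees alone, 1.07 to 1.65 with 1 library left out, calls in 3 of 8 fits and a largest adjusted p of 0.0961. With the pair as a block it did not pass (adjusted p = 0.0519). The list median was -0.04, with 8 positive and 9 negative differences.

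Major royal jelly proteins are the main proteins of brood food, made in the hypopharyngeal glands of nurses. Of 11 genes for them and for alpha-glucosidases, Mrjp9 (GB55215) rose and none fell. It was at 3586 and 3254 in the younger VSH and 2636 and 3457 in the younger NVS libraries, and at 4758 and 3759.8 in the older VSH and 4804 and 4908 in the older NVS libraries, without overlap, and the log2 difference was 0.50 ± 0.10 (SE), adjusted p = 0.0473, with calls in 1 of 8 fits with a library left out and a largest adjusted p of 0.13. With the pair as a block it did not pass (adjusted p = 0.0794). Mrjp7 had 1.07 ± 0.23 (SE) with adjusted p = 0.0567 and Mrjp8 0.59 ± 0.15 (SE) with adjusted p = 0.0932. The 3 gland markers Mrjp1, Mrjp3 and Hbg3 summed to 589.2 to 1291 in the younger and 680.9 to 1319 in the older libraries, so that these ranges overlapped. The sums were mostly the alpha-glucosidase Hbg3, at 586.1 to 1293 over the libraries. Mrjp1 was at 3.144 to 158.1 and Mrjp3 at 0 to 14.85. Whether gland transcripts had a part in the difference of Mrjp9 was not tested.

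Cytochrome P450 genes had mostly negative differences, with 21 negative and 8 positive differences among 29, a median of -0.11, 7 lower and 3 higher at an unadjusted p under 0.05 (24.1% and 10.3%, beside 6.51% and 8.95% of all genes tested), and 1 call. CYP6AS3 (GB49887), of a bee subfamily that metabolises flavonoids of nectar and pollen, was at 25266 and 19098 in the younger VSH and 19480.4 and 22983 in the younger NVS libraries, and at 17212 and 15016 in the older VSH and 14524 and 16139.7 in the older NVS libraries. All older libraries lay below all younger ones, by a log2 difference of -0.46 ± 0.09 (SE) with adjusted p = 0.0443, in 2 of 8 fits with a library left out (largest adjusted p 0.157) and not with the pair as a block (adjusted p = 0.0784). In the other direction CYP9Q1, which detoxifies pesticides, had 0.26 ± 0.08 (SE) with adjusted p = 0.133 and no overlap, and CYP6AS8 0.83 ± 0.25 (SE) with adjusted p = 0.129.

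GMC oxidoreductases are flavin enzymes that include glucose dehydrogenase and glucose oxidase. GMCOX6 (GB51817) fell from 69.6 and 62.1 in the younger VSH and 28.9 and 47.8 in the younger NVS libraries to 14.4 and 26.2 in the older VSH and 12.8 and 11.3 in the older NVS libraries, without overlap. The log2 difference was -1.63 ± 0.29 (SE), adjusted p = 0.0232, with -1.79 to -1.45 when 1 library was left out, calls in 2 of 8 fits and a largest adjusted p of 0.113. It was the single call among 15 genes of the family, 10 of which had a positive difference.

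Further genes that fell were LOC408299, from 771 ± 133 to 493 ± 47.6, and LOC725930, described as retinol dehydrogenase 12-like, from 488 ± 83.2 to 315 ± 26.9. Their log2 differences were -0.63 and -0.62, with adjusted p-values of 0.0173 and 0.042. LOC725930 was called in 0 of 8 fits with a library left out (largest adjusted p 0.16). LOC409777 (-0.51), LOC409172 (-0.51), LOC725453 (-0.45), LOC411599 (-0.41) and alpha-Man-IIb (-0.38), a mannosidase that trims N-glycans, also fell without overlap, with adjusted p-values of 0.0161 to 0.0424. LOC102655093, a gene of low level, was at 13.3 and 17.2 in the younger VSH and 12.8 and 12.2 in the younger NVS libraries, and at 1.55 and 0.608 in the older VSH and 2.95 and 0.124 in the older NVS libraries. It had the largest fall, -2.84 ± 0.56 (SE) with adjusted p = 0.0378, on a scale that the pseudocount of 1 compresses at such values. Of the lower genes named so far, LOC725131, LOC412299, LOC408299, GMCOX6 and LOC725453 were also called with the pair as a block. The others were not, with adjusted p-values of 0.0588 to 0.0784.

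Most of the called genes have no functional name in the files, since 61 of the 80 carry a LOC symbol or none and 11 have a description. Among the 12 largest rises without overlap was LOC552771 (GB46737), a hydroxyacid oxidase 1-like gene whose relatives work in peroxisomes, which rose from 99.8 ± 19.6 to 194 ± 42, a log2 difference of 0.95 ± 0.15 (SE) with adjusted p = 0.0161. A gene listed without symbol under NCBI gene number 102655869 was at 6.18 and 4.15 in the younger VSH and 6.43 and 6.97 in the younger NVS libraries, and at 25.4 and 21.6 in the older VSH and 29.1 and 25.9 in the older NVS libraries. It had the largest rise, 1.95 ± 0.35 (SE) with adjusted p = 0.0232 and a wide gap between the classes. LOC725278 (0.93), LOC551089 (0.85), LOC100577504 (0.72) and LOC724521 (0.68) rose without overlap, with adjusted p-values of 0.0153 to 0.0335. Smaller rises included LOC725266 (0.63), an ostc-like subunit of the oligosaccharyltransferase that attaches glycans to new proteins, LOC408805 (0.34), a progestin and adipoQ receptor-like gene, and the undescribed LOC724221 (0.49). With the pair as a block LOC551089, LOC725266 and LOC408805 did not pass, with adjusted p-values of 0.0519, 0.0552 and 0.0694.

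Long non-coding RNAs gave 8 of the rises and none of the falls, which is 1.22% of the 658 tested, beside 53 rises or 0.64% among 8287 protein-coding genes. LOC102656690 was at 14.5 and 21.8 in the younger VSH and 24.2 and 25.8 in the younger NVS libraries, and at 50.3 and 58 in the older VSH and 66.4 and 99 in the older NVS libraries, each older value being above each younger one. It had a log2 difference of 1.60 ± 0.24 (SE) with adjusted p = 0.0161 and was called in 6 of 8 fits with a library left out (largest adjusted p 0.0659). LOC102654810 rose from 131 ± 47.5 to 304 ± 75.9 and LOC102653661 from 68.8 ± 14.8 to 129.8 ± 15.4, with log2 differences of 1.25 and 0.92 and adjusted p-values of 0.0345 and 0.0313, and with the pair as a block the latter did not pass (adjusted p = 0.0519).

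Heat shock chaperones, which refold proteins under stress and otherwise assist folding, had negative differences throughout and not a single call. All of the 16 genes tested had a negative difference, with a median of -0.75, and 11 had an unadjusted p under 0.05 (68.8%, beside 6.51% of all genes tested), but in none were the classes separate. LOC724488, a small heat shock gene described as lethal(2)essential for life-like, was at 28074 and 7088 in the younger VSH and 14358 and 34322 in the younger NVS libraries, and at 5495 and 6602 in the older VSH and 11538 and 6427 in the older NVS libraries. VSH1, NVS1 and NVS2 lay high, while VSH2 lay among the older libraries, and the log2 difference was -1.30 ± 0.35 (SE) with adjusted p = 0.103. Hsp90 was at 90491 and 80902 in the younger VSH and 32806 and 104914 in the younger NVS libraries, and at 63695 and 65478 in the older VSH and 27936 and 18216 in the older NVS libraries, so that NVS1 lay below both older VSH libraries, and the difference was -0.89 ± 0.29 (SE) with adjusted p = 0.16.

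The chaperone Hsc70cb had a smaller difference, -0.36 ± 0.10 (SE) with adjusted p = 0.115. The other chaperones with values were the small heat shock genes LOC724274 (-0.90) and LOC724231 (-1.13), the Hsp70Ab-like LOC410620 (-1.09), the mitochondrial Hsp60-like LOC409384 (-0.43) and the DnaJ homologue LOC411071 (-0.47). NVS2 stood highest in the list, with a median of 1.13 above the gene means, followed by VSH1 at 0.71, while the other 6 libraries lay between -0.33 and -0.0027. Without NVS2 the list median was -0.33, with 15 of 16 negative. With the youngest and oldest pairs alone, VSH1 among them, 11 members passed in the lower direction. In that fit 118 of all 10204 genes tested did so.

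**Figure D3:**
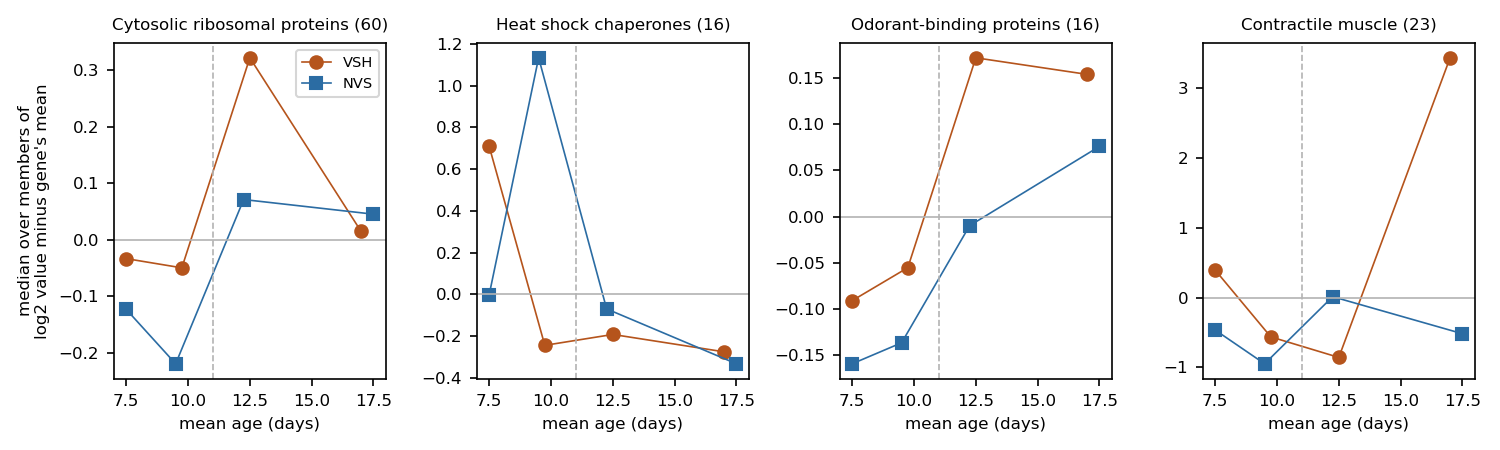
Median, over the members of 4 gene lists (number in brackets), of the log2 value of a library minus the gene's mean over the 8 libraries, by mean age in days, with circles for VSH, squares for NVS and a dashed line between the age classes. Vertical scales differ between panels; ribosomal genes peak in VSH3 at 0.32, heat shock genes in NVS2 at 1.13 and muscle genes in VSH4 at 3.43.

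Among the genes of smell, odorant-binding proteins had mostly positive differences and odorant receptors had both signs. Of 16 odorant-binding protein genes, 14 had a positive difference, with a median of 0.21, none passed, and 6 had an unadjusted p under 0.05, all higher (37.5% of the list, beside 8.95% of all genes tested). Obp4 was at 19950.4 and 24575 in the younger VSH and 18769 and 22682 in the younger NVS libraries, and at 28406 and 31763 in the older VSH and 25655 and 37192 in the older NVS libraries, with no overlap, and had a log2 difference of 0.51 ± 0.12 (SE) with adjusted p = 0.0627. Obp12 had 0.51 ± 0.12 (SE) with adjusted p = 0.071 and Obp11 0.41 ± 0.12 (SE) with adjusted p = 0.126, both without overlap. Obp1, which binds queen pheromone components, had 0.47 (adjusted p = 0.14), and Obp2 0.15 (adjusted p = 0.719). Without VSH4, 2 of the 16 passed, and 1 did so without both VSH4 and NVS2. Over all genes tested, these fits called 122 and 32 genes higher.

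Of 53 odorant receptor genes, 26 had a positive and 27 a negative difference, with a median of -0.004, none passed and 4 had an unadjusted p under 0.05. Or2, the co-receptor that every such receptor needs, had a difference of -0.01 ± 0.09 (SE) and a 4-library mean of 10406 ± 793 in younger and 10410.4 ± 1821 in older bees. Or11, the receptor for the main queen pheromone component in drones, had -0.10 ± 0.09 (SE). The smallest p-values were those of Or19 (0.59 ± 0.16 (SE)), Or20 (0.56 ± 0.16 (SE)) and Or5 (0.36 ± 0.11 (SE)), with adjusted p-values of 0.113, 0.119 and 0.141, all with overlap between the classes, and the most negative difference was that of Or3, at -0.45.

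None of the 5 chemosensory proteins passed. CSP1 had 0.31 ± 0.12 (SE) with adjusted p = 0.239 and no overlap, and CSP4 -0.29 ± 0.08 (SE) with adjusted p = 0.101. Of 6 gustatory and ionotropic receptors none passed, 5 had a positive difference and the median was 0.34. The Gr28b-like LOC102654049 had 0.97 and Gr7 0.74, both with overlap. The single negative one was the sugar receptor Gr1, which had -0.35 ± 0.15 (SE) with adjusted p = 0.267, each older library being below each younger one. Blue-sensitive opsin (Blop), listed among 6 genes of phototransduction, was at 153 and 79.1 in the younger VSH and 109.6 and 96.9 in the younger NVS libraries, and at 63.6 and 64.8 in the older VSH and 48.3 and 50.5 in the older NVS libraries. These classes did not overlap, and the difference of -0.91 ± 0.21 (SE) had adjusted p = 0.0703.

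Lists of hormone, clock, amine and synaptic genes held no calls. Of 13 genes of juvenile hormone, ecdysone and foraging, 5 had positive and 8 negative differences, with a median of -0.02. The ecdysone receptor Ecr had -0.19 ± 0.07 (SE) with adjusted p = 0.201, and For, the cGMP-dependent kinase of the foraging gene, -0.16 ± 0.07 (SE) with adjusted p = 0.274, both with all older libraries below all younger ones. The medians were -0.08 over 13 genes of amine signalling, 0.01 over 23 of synapses, 0.25 over 4 of insulin signalling, -0.05 over 5 of the clock, 0.10 over 6 TRP channels, 0.04 over 10 of the proteasome and 0.15 over 20 microRNA genes, and none of these passed. Of 6 genes of collagen IV and basement membrane 5 had a negative difference, with a median of -0.26 and no call, the viking-like collagen LOC408551 having -0.54 ± 0.21 (SE) with adjusted p = 0.236 and LOC408552 -0.55. Nidogen (Ndg) was the positive one, at 0.35.

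Several muscle and fat body genes stood far higher in the older VSH4 than in any other library. Of 23 contractile genes 20 had a positive difference with a median of 1.0, and without VSH4 11 were positive and 12 negative with a median of -0.04. Troponin I (TpnI) was at 134 in VSH4 and at 0 to 4.76 in the other libraries, myosin heavy chain (Mhc1) at 582 against 62.0 to 130.5, troponin T (TpnT) at 339.9 against 8.90 to 39.6, and Mp20 at 305 against 0 to 12.8. Mlc2, a light chain of myosin, was at 223 against 0 to 12.9. No contractile gene passed. TpnCIIa alone had no overlap between the classes, at 21.6 and 18.3 in the younger VSH and 21.9 and 9.28 in the younger NVS libraries and at 40 and 77.8 in the older VSH and 35.2 and 37.7 in the older NVS libraries, with a difference of 1.37 ± 0.32 (SE) and adjusted p = 0.071, and of 1.16 without VSH4.

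Vitellogenin (Vg), the yolk and storage protein of the fat body, was at 2146 in VSH4, at 69.8 to 89.6 in the other older and at 69.4 to 203.9 in the younger libraries. Its difference was 0.69 (adjusted p = 0.685) with and -0.41 without that library. The hexamerins Hex70a and Hex110 had 1.71 and 0.60, and 0.33 and -0.18 without it, and the lipophorin gene Rfabg 0.15. Not every member stood out in VSH4, as Zasp66, a protein of the muscle Z band, was at 24.4 there and at 22.5 in VSH3, and the lipoprotein Vhdl was at 127.8 there and at 285.9 in NVS1. Over 6 genes of the fat body list the median was 0.47 with and -0.07 without VSH4. Of the 80 calls, 71 were also made without VSH4.

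The 4 mean ages of the pairs give the shape of the differences within the class contrast. In 78 of the 80 called genes the largest step between successive pairs lay between the second and the third pair, that is between 9.5 to 9.75 and 12.25 to 12.5 days, and in 2 it lay between the first and the second. The median absolute step was 0.52 there on the log2 scale, against 0.12 within either class. The pair means ran in a single direction over all 4 ages in 17 genes, 12 upwards and 5 downwards. Among all 10204 genes tested, 497 ran upwards and 509 downwards in this way. A contrast of the first 2 pairs with the last 2 favours genes of this shape, and the steps are given as a description. With mean age in days as a slope in place of the classes, 15 genes passed, 8 of them among the 80.

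Whether the age difference was the same in VSH and NVS bees was asked with an interaction term. It passed for 2 of 10204 genes (0.0196%), and 276 had an unadjusted p under 0.05. LOC724228 (GB50292) was at 1255 and 1294 in the younger VSH and 709.6 and 699.9 in the younger NVS libraries, and at 722 and 896 in the older VSH and 1166 and 1122 in the older NVS libraries. It was lower in older VSH bees (-0.66) and higher in older NVS bees (0.70), and the difference between these was -1.36 ± 0.16 (SE) with an adjusted p of 0.0232. LOC413697 (GB49937), described as a dihydroxyacetone kinase and FAD-AMP lyase-like enzyme, was at 349.8 and 524 in the younger VSH and 606 and 554 in the younger NVS libraries, and at 494 and 456 in the older VSH and 180.2 and 181 in the older NVS libraries. The older NVS libraries lay far below all others, with age differences of -1.68 in NVS and 0.15 in VSH bees, and the difference between these was 1.83 ± 0.25 (SE) with an adjusted p of 0.0493.

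With 1 library left out the adjusted p of LOC724228 ran from 0.00492 to 0.188 and that of LOC413697 from 0.02 to 0.236, while the differences ran from -1.52 to -1.21 and from 1.53 to 2.12. With the pair as a block both passed, and after quantile normalisation neither did. LOC726864 had -0.60 in VSH and -3.46 in NVS bees, LOC102655185 -0.14 and 1.0, and LOC102655574 -0.82 and 1.48, with adjusted p-values of 0.266, 0.266 and 0.322 for the interaction. Of the 80 genes called between the age classes, 3 had an unadjusted interaction p under 0.05.

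**Figure D4:**
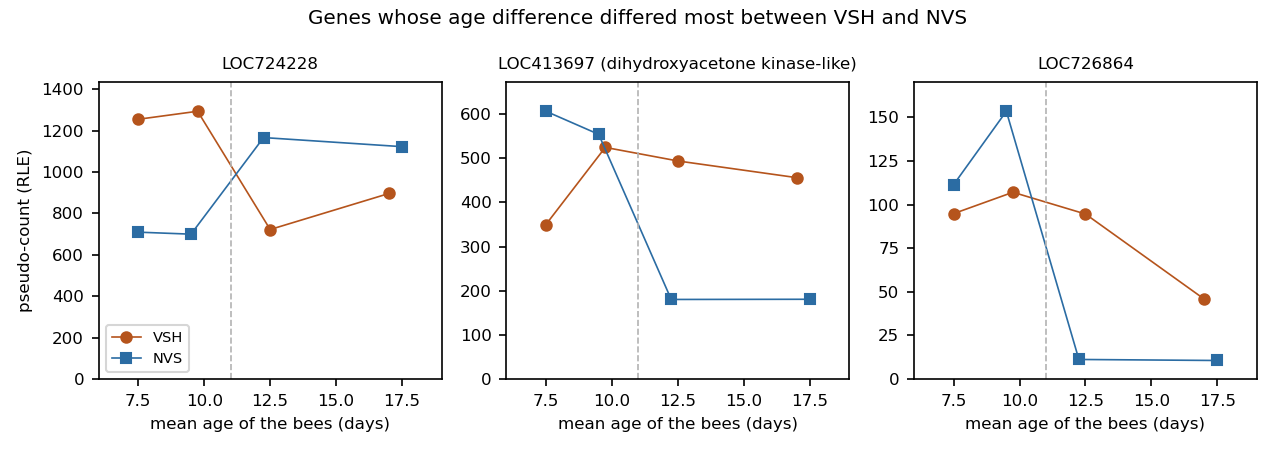
Pseudo-counts (RLE) of 3 genes with small interaction p-values, by the mean age of the bees in each library (days), with circles for VSH, squares for NVS and a dashed line between the age classes; axes start at 0. LOC724228 crosses over, LOC413697 and LOC726864 are lowest in the 2 older NVS libraries, and LOC726864 did not pass the test.

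Foragers are usually the oldest workers of a hive, and the forager and nurse libraries share no sample with those above, but their ages are not in the labels and their table was normalised separately. Between foragers and nurses 10 of 10436 genes passed (0.0958%), and 13.0% had an unadjusted p under 0.05. Of the 64 genes that rose with age, 38 had a positive forager minus nurse difference, beside 49.7% of all genes tested in both tables, and of the 16 that fell, 14 had a negative one. An unadjusted p under 0.05 in the same direction was found for 11 of the 64 and 7 of the 16, and in the opposite direction for 2 and 0, those 2 being RpL37 (-0.39) and LOC551479 (-0.33).

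In this limma fit LOC552811, the laccase-5-like gene, was the single gene of the 80 that also passed between foragers and nurses. Its pseudo-counts were 4054 and 3430.0 in 2 forager libraries and 312, 129 and 213 in 3 nurse libraries, a log2 difference of 4.18 (adjusted p = 0.0202). B-gluc2 was at 323 and 452 in the forager and 95.5, 15 and 186 in the nurse libraries, a difference of 2.54 (unadjusted p = 0.0308). Def1 was at 706 and 2909 in the forager and 106, 30.8 and 4849 in the nurse libraries, where 1 nurse library exceeded both forager libraries. LOC409801 had 0.44, LOC725131 -0.44, GMCOX6 -1.82 and RpL32 -0.29, each with an unadjusted p above 0.05 in this fit. The study, with its own test, listed GMCOX6 among redox genes lower in foragers than in nurses.

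**Figure D5:**
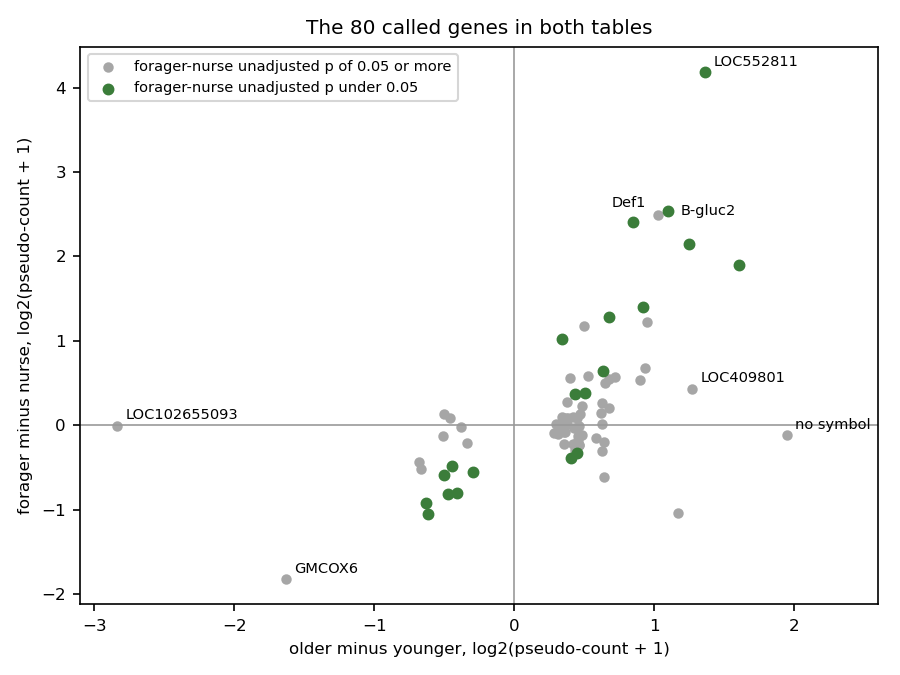
Forager minus nurse difference against older minus younger difference, both on the log2(pseudo-count + 1) scale, for the 80 genes called between the age classes, with green points for an unadjusted forager and nurse p under 0.05. LOC552811 lies at 1.36 and 4.18, 14 of the 16 genes that fell lie below 0 on the vertical axis, and 38 of the 64 that rose lie above it.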

How the data were processed

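Per the labels, the submitters' processing notes and the methods of the study, the authors extracted RNA from frozen antennal flagella, made stranded TruSeq libraries, called bases with CASAVA 1.8.2, checked them with FastQC, and used TopHat2 with Bowtie2 2.2.3 for alignment, HTSeq 0.6.1p1 for counts per gene and edgeR 3.4.0 for normalisation by Relative Log Expression. What was deposited are pseudo-counts adjusted to a common library size, an expression signal with no whole numbers above 0 among them (0%), with a table for the 8 VSH and NVS libraries and another for the 5 forager and nurse libraries, each normalised by itself. Reads could not be recovered, so no count test was run. The depth of each library cannot be read from these values, but the study reports numbers of aligned reads that differed widely between libraries. Values below 1e-10 were set to 0.

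Of 13414 genes, 1977 were at 0 in all 8 libraries and 10204 had a sum of at least 20 and were tested (at least 15 for foragers and nurses). Log2(value + 1) was fitted in limma 3.58.1 (R 4.3.3, trend) with age class and behaviour, and two-sided p-values were adjusted by Benjamini-Hochberg across the whole table, 0.05 being the threshold. Since each replicate number belongs to a single age class, the pair could enter as a random block or as pair means, not as a fixed term. The same-numbered VSH and NVS libraries are matched in age by the labels. After age class and behaviour, their deviations correlated at -0.03 in the younger and 0.26 in the older class over the 8133 genes whose mean was 50 or more. The fit was run on simulated data with noise drawn independently for each library, so without correlation in pairs. Changes were planted in genes with a mean of at least 10. It recovered 27 of 50 log2 changes of 0.5 and 37 of 50 of 1, and called 10 genes with no planted change.

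The age classes and the gene lists (33, by symbol or description) were chosen with earlier results of these data known, and symbols that a pattern had matched by mistake were removed from 3 lists. Named genes were the 12 largest calls in each direction without overlap and with a class mean of at least 10, up to 3 genes of smallest p per list and the 5 smallest interaction p-values. The others named, such as RpL3, LOC551479, LOC725147, LOC100577683, LOC410042, LOC725266, LOC408805, LOC724221, Ndufb2, GST-mic1 and further members of the lists and markers, were chosen after their values were seen. Names and biotypes came from the files and a RefSeq table of the later assembly Amel_HAv3.1, which matched 8976 of the genes tested and 75 of the 80 called, and no coordinates of it are given. Several genes called here belong to families whose similar copies could share reads. The alternatives were other pseudocounts, filters, scalings, covariates, age codings, blocks and sets of libraries. The fits without both VSH4 and NVS2, and with a block but without VSH4, were chosen after seeing the data, as were the list values under other settings.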

Additional observations from a re-analysis of the deposited data

Results flagged for a closer look

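In groups of 4 libraries, the gap of the highest or lowest library to its nearest neighbour was compared with the range of the group, for 101 genes in 2 age classes, 202 groups in all. In 18 of these the gap exceeded Dixon's critical value for 4 samples, and 11 of the 18 lay in VSH4. Chance flags about 1 in 20 groups, but the 18 cannot be judged by that rate. Muscle and fat body genes among the 101 were named with their high values in VSH4 known.

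VSH4 stood above the other older libraries in 9 genes of muscle and fat body. TpnCIIa was at 77.8 against 35.2 to 40, TpnI at 134 against 2.75 to 4.76, Mp20 at 305 against 0 to 12.8, TpnT at 340 against 8.90 to 19.6, Mhc1 at 582 against 78.8 to 131 and Mlc2 at 223 against 0.0374 to 3.32. Hex70a was at 350 against 0 to 5.85, Vg at 2150 against 69.8 to 89.6 and Hex110 at 175 against 4.15 to 21.3. The odorant co-receptor Or2 was also highest in VSH4, at 13100 against 9240 to 9730, and Mrjp9 was lowest there, at 3760 against 4760 to 4910. In the younger class TpnI was at 3.89 in VSH1 against 0 to 0.305, and Mp20 at 6.45 against 0 to 0.627.

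The other libraries gave single values. RpL32 was at 12500 in VSH3 against 9350 to 9560, the DnaJ homologue LOC411071 at 4330 in NVS1 against 9440 to 9770, and Obp1 at 78200 in NVS2 against 96900 to 99500. Hymenoptaecin (LOC406142) was at 8320 in NVS3 against 136 to 785, and Def2 at 66.8 in NVS4 against 2.56 to 8.41.

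The age difference differed between VSH and NVS bees by the interaction test in LOC724228, where the VSH difference minus the NVS one was -1.36, and in LOC413697, where it was 1.83.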

How the results depend on the processing

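Of the 80 calls, 80 were made with a pseudocount of 0.5, 78 with 4, 76 with a mean of at least 10, 79 after rescaling to equal totals and 62 after quantile normalisation, and the totals called were within 1.5 times 80 in these fits. No filter on low values gave 47 calls (38 higher and 9 lower), no behaviour covariate 30 (26 and 4), a slope on mean age in days 15 (11 and 4), and no variance trend 1 (1 and 0, with 1372 genes at an unadjusted p under 0.05). The replicate block gave 39 calls as a random term (33 and 6) and 47 on pair means (31 higher), 29 of them among the 80. The VSH libraries alone gave 2 calls (2 and 0, with 826 genes at an unadjusted p under 0.05), the NVS libraries alone 6 (4 and 2), and the youngest and oldest pairs alone 332 (214 and 118). Leaving out 1 library gave 8 to 148 calls, 5 to 122 higher and 2 to 26 lower. Without both VSH4 and NVS2 there were 42 (32 and 10), and with the random replicate block and without VSH4 there were 170 (136 and 34), the last pair of settings being chosen after seeing the data. In every one of these fits, the genes of the 80 that were tested kept their direction, which their choice on the same libraries favours. The cause of these shifts was not tested.

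The interaction gave 2 calls, 1 with a pseudocount of 4, 1 with a mean of at least 10, 0 after quantile normalisation and 0 to 5 with 1 library left out. The replicate block changed neither of the 2.

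Among named genes, none that was called reversed. Reversals without VSH4 were TpnT at -0.58, Mlc2 at -0.42, Vg at -0.41 and Hex110 at -0.18, and with 1 library left out the differences ran up to 1.39 (TpnT), 2.14 (Mlc2) and 1.52 (Vg), each without VSH3, and 1.03 (Hex110, without NVS3), and with the block in addition -0.58, -0.41, -0.41 and -0.18. Without both VSH4 and NVS2, TpnT was at -1.01, Mlc2 at -0.76, Vg at -0.44, Hex110 at -0.16, Mp20 at -0.067 and LOC102654136 at -0.22. In the NVS libraries alone TpnT was at -0.082, Mlc2 at -0.38, Hex110 at -0.32 and LOC406142 at 0.80, and in the VSH libraries alone Def2 was at -0.048, Or2 at 0.048 and Or11 at 0.10. Or2, at -0.01, was also at 0.0092 on mean age in days and at 0.10 in the youngest and oldest pairs, and ran from -0.11 to 0.069 with 1 library left out. Read depth is not in the deposited values, so its limits on low genes could not be given.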
